A study of Mus musculus with 44 samples.

Results

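Cultured mouse microglia were compared 1 h after addition of the cytokine TGFb1 with the same kind of culture at 0 h. The comparison takes in 4 of the 44 libraries of the series, 2 at 0 h and 2 at 1 h, chosen by cell type and time from their labels, and covers all 12335 genes of the culture table. All 4 came from C57BL/6 mice. The microglia, the resident macrophages of the central nervous system, were taken from primary glial cultures of newborn mice and received TGFb1 at 100 ng/ml. The labels give neither the age in days nor the medium, and they do not say whether the libraries of a time stem from different animals or dishes. The p-values therefore cover the spread between libraries, which may be technical. The libraries were numbered replicate 1 and 2 within a time. No untreated culture at 1 h was analysed here, so TGFb1 and the handling of the cells over that hour cannot be told apart. Macrophages grown from C57BL/6 bone marrow with M-CSF, given TGFb1 at the same dose, had 2 libraries each at 0 and 1 h and served for comparison. Microglia at 3, 6, 16 and 20 h, also with 2 libraries each, show what followed.

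TGFb1 binds the receptor Tgfbr2, which brings in and activates the kinase Tgfbr1. The receptor pair phosphorylates Smad2 and Smad3, which enter the nucleus with Smad4 and switch on genes within the first hour, among them Smad7, Skil and Pmepa1, which damp the pathway. In the brain the cytokine is known as a signal that microglia need to acquire and keep their mature gene profile.

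The deposited values, called signal here, were read as counts scaled by a factor per library, since most low values were whole multiples of a step. How they were counted and scaled is not stated. On that reading a read was worth 0.725 to 0.928 units in these 4 libraries, which held an estimated 1746620 to 2246400 reads each. Genes without a read are listed at exactly 1. Between 1.39% and 1.65% of genes were at that value. The Pearson correlation over genes was 0.973 within each time and 0.966 to 0.972 between times, so at the level of the whole transcriptome the pairs of libraries at a time were about as alike as libraries of different times.

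The cultures carried microglial transcripts. The 23 measured microglia identity genes made up 2.13% and 2.08% of the total at 0 h and 2.11% and 2.08% at 1 h, against 1.19% to 1.65% in the 11 macrophage libraries. Sall1, a transcription factor that marks microglia among macrophages, was at 34.1 and 37.1 at 0 h and 25.2 and 39.4 at 1 h, and at 1 in the 4 macrophage libraries of 0 and 1 h. Tmem119, a membrane protein of mature microglia, was at 23.2 and 24.1 and then 23.9 and 30.3, also with the macrophages at 1.

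The same cultures held transcripts of neural cells. Sox2, a transcription factor of neural stem cells, was at 155 and 207 at 0 h and 141 and 169 at 1 h. Olig1, of the oligodendrocyte lineage, was at 541 and 572 and 583 and 631, and Dcx, a microtubule protein of young neurons, at 87.8 and 90.9 and 75.9 and 78.9. All 3 were at 1 in the 4 macrophage libraries of 0 and 1 h. Neural precursor markers, 21 of 21 measured, made up 0.276% and 0.295% of the total at 0 h and 0.292% and 0.288% at 1 h. In the 11 macrophage libraries the same list made up 0.183% to 0.343%, a range that holds the microglia shares, with Vim, an intermediate filament gene of many cell types, at 3131 and 3289.9 at 0 h. Its sum thus does not set the cultures apart, as single markers such as Sox2 do. The astrocyte list of 11 genes made up 0.0703% to 0.0772%, the 8 measured oligodendrocyte lineage markers 0.0284% to 0.0351% and the 7 measured neuron markers 0.0248% to 0.0304%. For each of these lists the range at 0 h overlapped the range at 1 h. Of the single markers above, Sox2 overlapped too, while both 1 h libraries were lower for Dcx and higher for Olig1, neither called. Whether the neural share moved over the hour was not tested. In RNA from whole cultures, fewer cells of a type and less RNA per cell cannot be told apart.

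After 1 h, 42 genes had changed, 30 up and 12 down, which is 0.340% of the genes tested (limma on log2(signal + 1), Benjamini-Hochberg adjusted p under 0.05). The background for a rise was 0.243% and for a fall 0.0973%, and 699 genes (5.67%) were at an unadjusted p under 0.05. Fold changes of the called genes ran from 1.26 to 9.38 with a median of 1.90, and 19 exceeded 2-fold, 15 up and 4 down. The median log2 change over all genes was 0.00 and the median standard error 0.30. The 0 h and 1 h libraries of all 42 did not overlap, a pattern seen in 37.5% of all genes tested. With 1 library fewer the count fell to 19 without 0 h replicate 2, to 24 without 1 h replicate 1 and to 15 without 1 h replicate 2, and 15 genes kept their call whichever of the 4 libraries was left out. Among these were Sgk1, Pim1, Id2, Junb, D4WSU53E, Cxcr4, Atf4, Mir221, Cebpb, Tnf, Ninj1, Ccl4, H3f3b and Bhlhe40, and each call outside the 15 was lost without at least 1 of the libraries. The count was 13, 9 up and 4 down, without the trend of the variance on the level.

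**Figure D1:**
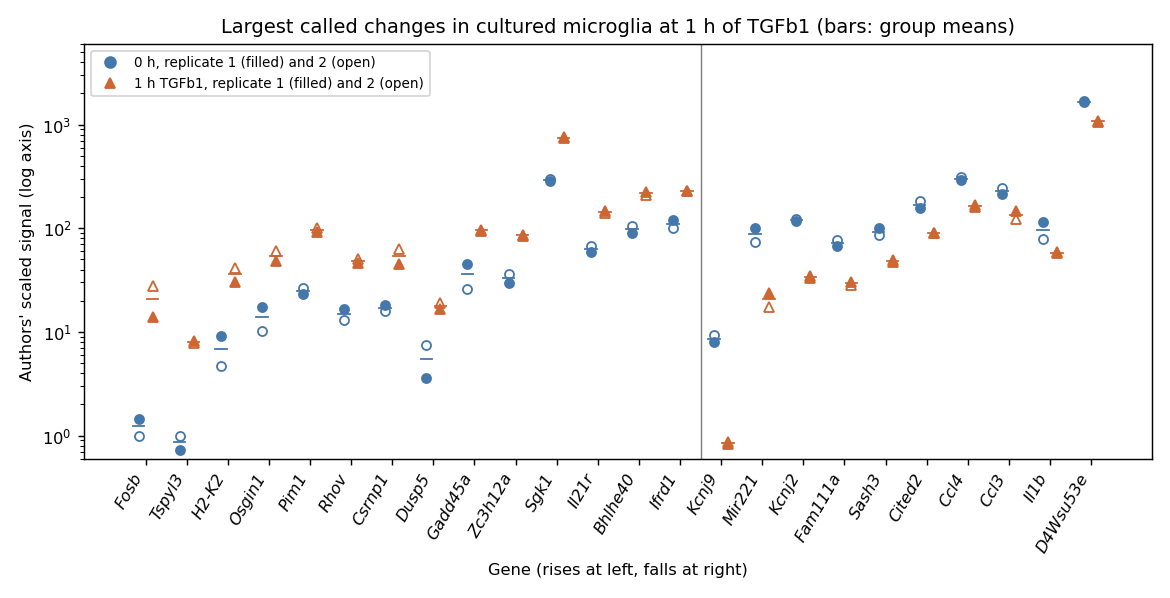
Scaled signal per library (log axis) of the 14 called genes with the largest rise and the 10 with the largest fall, circles at 0 h and triangles at 1 h, filled for replicate 1 and open for replicate 2, with bars at the group means. Only called genes whose 0 h and 1 h libraries do not overlap were eligible, so the gap between times is part of the selection. Fosb, Tspyl3 and Kcnj9 lie near the value of 1 read at 1 of the times.

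The rises with the smallest adjusted p were those of Sgk1 and Pim1, both genes of kinases. Sgk1, a serine/threonine kinase that acts on ion channels and cell survival, was at 288 and 297 at 0 h and 742 and 752 at 1 h. Its log2 change was 1.35 ± 0.10 (adjusted p = 3.37e-07), a rise of 2.55-fold, with the standard error and the adjusted p from limma given here and throughout. Both treated libraries lay far above both at 0 h, and the replicates of a time differed little.

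Pim1, a serine/threonine kinase of growth and survival signalling, was at 23.2 and 26.4 and then 92 and 101, a log2 change of 1.92 ± 0.16 (adjusted p = 9.49e-07). Ifrd1, a nuclear co-regulator of transcription, was at 121 and 101 and then 231 and 229.7, a log2 change of 1.05 ± 0.17 (adjusted p = 0.00428). In each, the lower 1 h library was well above the higher 0 h library.

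Trib1, a pseudokinase that directs C/EBP proteins to degradation, lay near the threshold, with signal of 124 and 104 at 0 h and 171 and 205 at 1 h and a log2 change of 0.71 ± 0.15 (adjusted p = 0.0491). Cebpb, a myeloid C/EBP transcription factor, rose from 262 and 255 to 408 and 463, by 0.75 ± 0.10 (adjusted p = 0.000544) on the log2 scale. It was the only called member among 19 measured myeloid transcription factors, against 0.243% of all genes called up. The median log2 change of the 19 was 0.05. Cebpa, the relative of Cebpb, named after its values were seen, was at 957 and 1035 and then 1194 and 1204 and missed the call, at 0.27 ± 0.06 (adjusted p = 0.0662).

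Among 24 measured early target genes of TGFb1, 3 rose and 1 fell, with a median log2 change of 0.14. The background was 0.243% for rises and 0.0973% for falls. Junb, an AP-1 subunit, was at 491 and 452 at 0 h and 833 and 859.8 at 1 h, a log2 change of 0.84 ± 0.08 (adjusted p = 5.36e-06). Bhlhe40, a basic helix-loop-helix repressor, was at 89.2 and 106 and then 226 and 209, a change of 1.15 ± 0.17 (adjusted p = 0.00148). Vegfa, the endothelial growth factor, was at 45.7 and 38 and then 72.6 and 88.4, a change of 0.93 ± 0.19 (adjusted p = 0.0379). The member that fell was Cited2, a partner of the coactivators CBP and p300, with 155 and 184 at 0 h and 89.9 and 90.1 at 1 h and a log2 change of -0.90 ± 0.17 (adjusted p = 0.0169).

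Among the receptors, Smads and feedback genes, 1 of 25 measured members rose, against 0.243% of all genes tested, and none fell. The median log2 change of the 25 was 0.02. Libraries did not overlap with 1 h higher in 11 of the 25, against 19.6% of all genes tested, and with 1 h lower in 4, against 17.9%. The riser was Pmepa1, which binds receptor Smads and holds them back, at 279 and 241 at 0 h and 397 and 385 at 1 h with a change of 0.59 ± 0.10 (adjusted p = 0.00852). Smad7, the inhibitory Smad, was at 103 and 82.6 and then 146 and 140.4, with both 1 h libraries higher, but its change of 0.63 ± 0.25 (adjusted p = 0.708) missed the threshold. Skil, the SnoN repressor of Smads, was at 171 and 184 and then 196 and 189.8, a change of 0.12 ± 0.13 (adjusted p = 1). Klf10, a TGFb-inducible zinc finger factor that was singled out after its values were seen, was at 34.1 and 48.2 and then 95.7 and 95.3. Its log2 change of 1.22 ± 0.41 (adjusted p = 0.5) had a standard error above the median of all genes.

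The ligand and receptors were about level. Tgfb1 was at 171 and 166 at 0 h and 162 and 166 at 1 h, with a log2 change of -0.04 ± 0.14 (adjusted p = 1). Tgfbr1 was at 461 and 430.4 and then 511 and 523, a change of 0.22 ± 0.12 (adjusted p = 0.993), and Tgfbr2 at 292 and 297 and then 308 and 288, a change of 0.02 ± 0.17 (adjusted p = 1). None passed the test, though both 1 h libraries of Tgfbr1 were above those at 0 h. LRRC33, which RefSeq lists as a synonym of Nrros, a microglial anchor of latent TGFb1, was named after its values were seen, at 345 and 320.0 and then 242 and 219, a change of -0.53 ± 0.13 (adjusted p = 0.145).

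The Id genes, inhibitors of basic helix-loop-helix factors and targets of TGFb family Smads, split. Of 4 measured, only Id2 rose, against 0.243% of all genes tested. Its signal went from 941 and 1003 to 1514 and 1430.2, a log2 change of 0.60 ± 0.05 (adjusted p = 1.31e-06). Id1 was at 389.5 and 428 and then 361 and 339.8, a change of -0.22 ± 0.12 (adjusted p = 0.997). Id3 was at 519 and 527 and then 492 and 457, a change of -0.14 ± 0.12 (adjusted p = 1). The values of Id1 and Id3 were lower at 1 h, without passing the test. Id4, also a gene of neural precursors, was at 37 and 31.5 and then 61.9 and 60.7, a change of 0.82 ± 0.33 (adjusted p = 0.708).

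Immediate early genes, which stimulated cells switch on without new protein synthesis, had the highest median change among the lists with more than 1 measured member. Of 29 measured, 4 rose and none fell, against 0.243% and 0.0973% of all genes tested, and the median log2 change was 0.60. At an unadjusted p under 0.05, 15 were higher, against 5.67% of all genes in either direction. Libraries did not overlap, with 1 h higher, in 21 of the 29, against 19.6% of all genes tested. Fosb, an AP-1 subunit, was at 1.45 and 1 at 0 h, where replicate 2 had no read, and at 14 and 27.7 at 1 h (adjusted p = 0.00157). Its fitted log2 change of 3.23 depends on the pseudocount.

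Csrnp1, a nuclear protein of the immediate early class, was at 18.1 and 15.8 and then 45.4 and 62.4, a log2 change of 1.6 ± 0.32 (adjusted p = 0.0258). Gadd45a, a stress-induced growth arrest gene, was at 45.7 and 26 and then 96.5 and 94.5, a change of 1.44 ± 0.29 (adjusted p = 0.0301). Dusp5, a nuclear phosphatase of ERK, was at 3.63 and 7.42 and then 16.5 and 19.1, a change of 1.59 ± 0.34 (adjusted p = 0.0491). These 3 calls, and that of Fosb, were lost in at least 1 of the 4 fits that left out a library.

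Not every member of this class was higher. Fos, named after its values were seen, was at 150.2 and 132 at 0 h and 145 and 140.4 at 1 h, a log2 change of 0.02 ± 0.19 (adjusted p = 1). Egr1, a zinc finger factor named in the same way, was at 101 and 153 and then 308 and 263, and Nr4a1, an orphan nuclear receptor, at 25.4 and 29.7 and then 55.3 and 97.1. Fos was flat, while Egr1 and Nr4a1 were higher in both 1 h libraries but missed the call, with adjusted p of 0.955 and 0.342. Among 12 measured MAP kinase feedback genes none passed the test in either direction, against 0.340% of all genes tested. Their median log2 change was 0.06. The 2 with the smallest p were Dusp4, at 21 and 15.1 and then 33.8 and 36.8, and Dusp6, at 175 and 200.3 and then 134 and 109, both ERK or MAP kinase phosphatases.

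**Figure D2:**
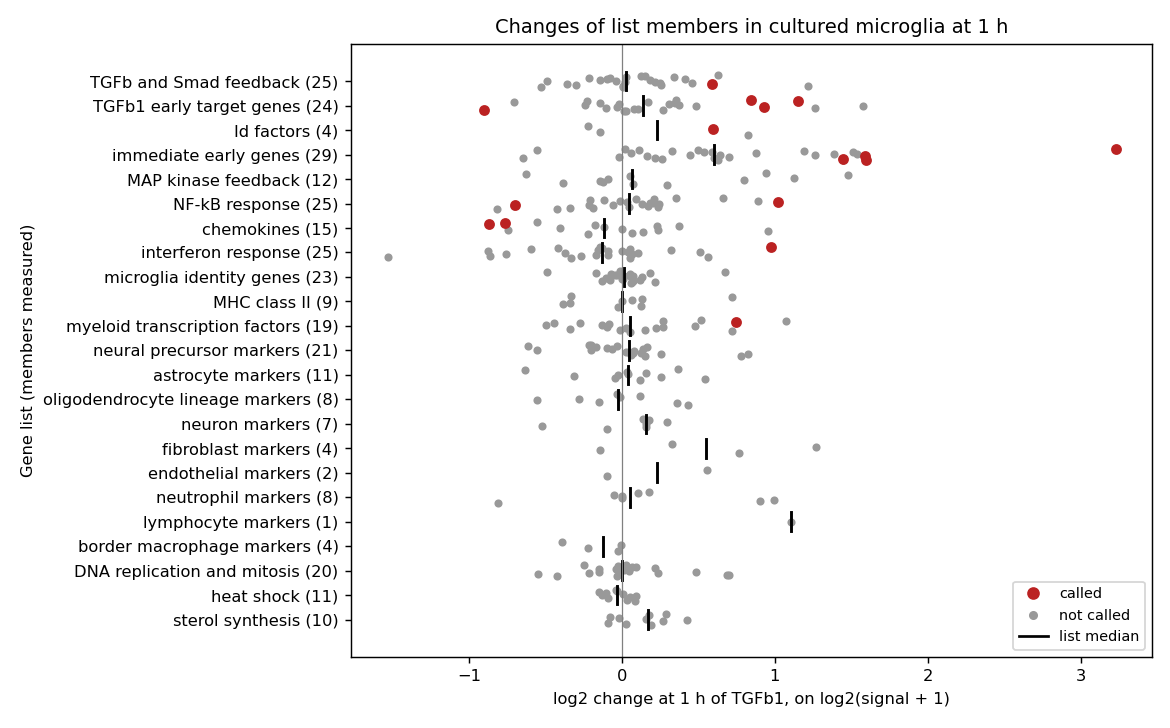
Fitted log2 change at 1 h for every measured member of the 23 gene lists, a row per list with the number measured in brackets. Red points passed the test, grey points did not, and black bars mark list medians. The immediate early genes lie mostly right of 0, while the microglia identity and neural precursor lists centre on 0.

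Inflammatory genes went both ways. Of 25 measured NF-kB response genes, 1 rose and 1 fell, against 0.243% and 0.0973% of all genes tested. Their median log2 change was 0.04. Tnf, the cytokine, rose from 97.2 and 71.4 to 186 and 156, a log2 change of 1.02 ± 0.14 (adjusted p = 0.000798). Il1b, interleukin 1 beta, fell from 114 and 78.8 to 58.6 and 57.2, a change of -0.70 ± 0.14 (adjusted p = 0.0257). For Il1b the replicates differed more at 0 h than at 1 h, and in neither gene did the groups overlap. Zc3h12a, a ribonuclease that degrades inflammatory messenger RNAs, rose from 29.5 and 36.1 to 86.9 and 84, a change of 1.36 ± 0.23 (adjusted p = 0.00749).

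Of 15 measured chemokines, 2 fell and none rose, against 0.0973% and 0.243% of all genes tested. Their median log2 change was -0.11. The 2 that fell were the neighbouring macrophage inflammatory proteins Ccl3 and Ccl4. Ccl4 was at 290.1 and 311 at 0 h and 161 and 167 at 1 h, a log2 change of -0.87 ± 0.12 (adjusted p = 0.000798). Ccl3 was at 216 and 245 and then 148 and 123, a change of -0.77 ± 0.11 (adjusted p = 0.000798). In both the higher 1 h library was well below the lower 0 h library. Cxcr4, the receptor of Cxcl12, rose from 197 and 216 to 364 and 391, a change of 0.87 ± 0.10 (adjusted p = 6.8e-05), and Il21r, an interleukin receptor, from 58.8 and 66.9 to 146 and 139, a change of 1.17 ± 0.22 (adjusted p = 0.0154).

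Among 25 measured interferon response genes 1 rose, against 0.243% of all genes tested, and none fell, with a median log2 change of -0.13. Irf1, an interferon regulatory factor, was at 37 and 37.1 and then 77.5 and 70.2, a change of 0.97 ± 0.19 (adjusted p = 0.0257). Irf7, the factor that amplifies type I interferon, was at 50.1 and 47.3 and then 40.4 and 47.7, a change of -0.15 ± 0.30 (adjusted p = 1). H2-K2, named as an MHC class I gene, was at 9.07 and 4.64 and then 30.5 and 41.2, a change of 2.27 ± 0.46 (adjusted p = 0.0306). Near-identical class I genes share reads with it, so this row is uncertain. No MHC class II gene of 9 measured passed the test, against 0.340% of all genes tested.

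The falls included potassium channels and the gene of a microRNA. Kcnj2, an inwardly rectifying potassium channel, was at 118 and 123 at 0 h and 33 and 34.7 at 1 h, a log2 change of -1.80 ± 0.29 (adjusted p = 0.00421). Kcnj9, a G protein-gated channel of the same family, was at 7.98 and 9.28 and then 0.825 and 0.867, which is 1 read in each 1 h library (adjusted p = 0.00749). Fam111a, a protease known in human cells for restricting viruses, was at 66.7 and 77 and then 30.5 and 28.6, a change of -1.25 ± 0.20 (adjusted p = 0.00272). All 3 were lower in both libraries at 1 h.

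The row named Mir221 fell from 100.1 and 74.2 to 23.9 and 17.3, a log2 change of -2.03 ± 0.27 (adjusted p = 0.000453). It counts reads assigned to the gene of a microRNA, and the mature arms were not measured apart. The hairpin is shown because it fell the most among called genes with more than 10 units of signal at both times. It lies at chrX:19146294-19146388 on the minus strand (RefSeq, GRCm38.p6), and capitals mark bases 2 to 8, the seed, of the 5′ and then the 3′ arm.
Mir221 hairpin: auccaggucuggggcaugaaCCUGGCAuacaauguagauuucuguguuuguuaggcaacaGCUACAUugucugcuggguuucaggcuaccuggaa

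Sash3, an adaptor protein known from lymphocytes, fell from 100.1 and 85.3 to 47 and 49.4, a log2 change of -0.93 ± 0.19 (adjusted p = 0.0313). D4WSU53E, which RefSeq gives as a synonym of Rsrp1, fell from 1679 and 1647 to 1071 and 1078, a change of -0.63 ± 0.07 (adjusted p = 1.82e-05). Zbtb7a, a zinc finger repressor, fell from 358 and 348 to 222 and 239, a change of -0.61 ± 0.11 (adjusted p = 0.00965). The smallest fall was in 2410015M20Rik, a synonym of Micos13, a protein of the mitochondrial inner membrane, with a log2 change of -0.40 ± 0.08 (adjusted p = 0.0464).

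The remaining rises with large changes were in genes without a list. Osgin1, an oxidative stress-induced growth inhibitor, was at 17.4 and 10.2 at 0 h and 47.8 and 59.8 at 1 h, a log2 change of 1.92 ± 0.38 (adjusted p = 0.0257). Rhov, an atypical small GTPase, was at 16.7 and 13 and then 46.2 and 50.3, a change of 1.65 ± 0.32 (adjusted p = 0.0227). Tspyl3, a member of the TSPY-like family, was at 0.725 and 1, that is 1 read and none, and then 8.25 and 7.8 (adjusted p = 0.0491). Osgin1 and Rhov lay apart between times, and Tspyl3 rests on few reads.

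Smaller rises came in genes with steady replicates. Atf4, a factor of the stress response to amino acid shortage, was at 1009 and 1038 and then 1403 and 1423, a log2 change of 0.47 ± 0.05 (adjusted p = 8.74e-05). H3f3b, a gene of the replacement histone H3.3, was at 1237 and 1246 and then 1586 and 1534, a change of 0.33 ± 0.05 (adjusted p = 0.000995). A further 4 called rises, all named after their values were seen, were Ninj1 (0.52), Gde1 (0.65), Arl4c (0.50) and 1700017B05Rik (0.93), given as log2 changes.

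No microglia identity gene was called. Of all genes tested 0.340% were, so a list of 23 would mostly hold no call. Their median log2 change was 0.01, with members from -0.49 to 0.68. Libraries did not overlap with 1 h higher in 6 of the 23, against 19.6% of all genes tested. They did not overlap with 1 h lower in 4, against 17.9%. Cx3cr1, the fractalkine receptor, was at 1992 and 1816 at 0 h and 1979 and 1804 at 1 h. C1qc, a complement chain, was at 3105 and 3164 and then 2941 and 2992, lower in both 1 h libraries without a call. P2ry12, the purine receptor of resting microglia, was at 21.8 and 19.5 and then 14.8 and 13.9, lower in both 1 h libraries with a log2 change of -0.49 ± 0.50 (adjusted p = 1). Replicates of Cx3cr1 differed more than the times did.

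No member passed the test among 21 neural precursor, 11 astrocyte, 8 oligodendrocyte lineage, 7 neuron, 4 fibroblast, 2 endothelial, 8 neutrophil, 1 lymphocyte and 4 border macrophage markers measured. With 0.340% of all genes called, lists of this size would mostly hold no call. Neutrophil markers made up 0.00099% to 0.00218% of the total, with 4 of the 8 at or under 1 in all 4 libraries. Fibroblast markers had a median log2 change of 0.55 over 4 genes. Among them Col1a2, a collagen chain, was at 4.35 and 2.78 and then 7.42 and 13, and Acta2, an actin of contractile cells, at 32.4 and 27.1 and then 59.3 and 44.1, both uncalled. The part of these cells in the changes above was not tested.

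No measured member of the replication and mitosis, heat shock or sterol synthesis lists passed the test. Of all genes tested 0.340% did, so lists of this size would mostly hold no call. None of 20 genes of DNA replication and mitosis passed, with a median log2 change of 0.00, none of 11 heat shock genes, with a median of -0.03, and none of 10 sterol synthesis genes, with a median of 0.17. Among the last, Insig1, a brake on sterol synthesis, was at 111 and 104 and then 131 and 160.4, higher in both 1 h libraries without passing the test. In 6 of the 10 sterol synthesis genes both 1 h libraries were above both at 0 h, against 19.6% of all genes tested, and in none were both below.

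Several of the rises were gone by 3 h. At 3 h, 72 genes differed from 1 h (0.584% of genes tested), 25 up and 47 down, and at 16 and 20 h together 388 did (3.15%), 146 up and 242 down. These comparisons share the 1 h libraries with the first, so their values are given side by side. The count at 3 h ranged from 15 to 34 when one of its 4 libraries was left out (34 without 1 h replicate 1, 15 without 1 h replicate 2, 19 without 3 h replicate 1 and 22 without 3 h replicate 2). With quantile normalization it was 131, 60 up and 71 down. The later count fell to 197 without 1 h replicate 1 and to 177 without 1 h replicate 2.

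Pim1 was at 24.9 and 28.4 at 3 h and 29.5 and 23 at 20 h, close to its 0 h values, with a log2 change from 1 h to 3 h of -1.82 ± 0.16 (adjusted p = 1.57e-06). Id2 was at 945 and 884 at 3 h and 1013 and 1017 at 20 h, a change from 1 h to 3 h of -0.69 ± 0.05 (adjusted p = 3.62e-07). Bhlhe40 was at 90.3 and 78.6 at 3 h and 89.9 and 102 at 20 h, a change of -1.36 ± 0.17 (adjusted p = 0.000332). These genes peaked at 1 h among the times measured.

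Junb stayed partly raised, at 659 and 645 at 3 h and 574 and 580.4 at 20 h, a log2 change from 1 h to 3 h of -0.38 ± 0.08 (adjusted p = 0.0274). Kcnj2 was back at 121 and 96.8 at 3 h, a change of 1.65 ± 0.29 (adjusted p = 0.00861). Irf1 was at 38.7 and 26.2 at 3 h, a change of -1.19 ± 0.19 (adjusted p = 0.00406). Kcnj2 and Irf1 thus lay near their 0 h values by 3 h. The calls of Junb and Kcnj2 at 3 h were lost without any one of the 4 libraries, and that of Irf1 without 1 h replicate 1 or 3 h replicate 2.

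Sgk1 was at 727 and 726 at 3 h and 674 and 591 at 20 h, and its change from 1 h to 3 h was -0.04 ± 0.10 (adjusted p = 1). Every later library of Sgk1 was above both at 0 h. Pmepa1 went on rising to 959 and 921 at 3 h, a log2 change from 1 h of 1.26 ± 0.10 (adjusted p = 1.05e-06), and was at 628 and 589 at 20 h. Ccl4 was at 187 and 165 at 3 h and 219 and 192 at 20 h, still below its 0 h values, with a change from 1 h to the 2 last times of 0.38 ± 0.11 (adjusted p = 0.0589). Fam111a was at 36.1 and 37.1 at 3 h and 37 and 35.4 at 20 h, also below 0 h.

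Tnf was at 122 and 128 at 3 h and 77.6 and 91.1 at 20 h, a log2 change from 1 h to the 2 last times of -1.05 ± 0.12 (adjusted p = 1.93e-05). Mir221 was at 51.6 and 39.3 at 3 h and 29.1 and 50.4 at 20 h, between its 0 h and 1 h values, with a change to the last times of 1.03 ± 0.23 (adjusted p = 0.0137). Kcnj9 was at 4.3 and 2.91 at 3 h and 11.5 and 7.96 at 20 h, a change of 2.59 ± 0.36 (adjusted p = 0.000124). Tgfbr1, uncalled at 1 h, was at 822 and 735 at 3 h, a change from 1 h of 0.59 ± 0.12 (adjusted p = 0.0189). This call was lost without any one of the 4 libraries, and that of Mir221 without 1 h, 16 h or 20 h replicate 2. Microglia replicate numbers follow the order of deposit, so at 16 h replicate 2 is the library whose column carries the letter a.

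**Figure D3:**
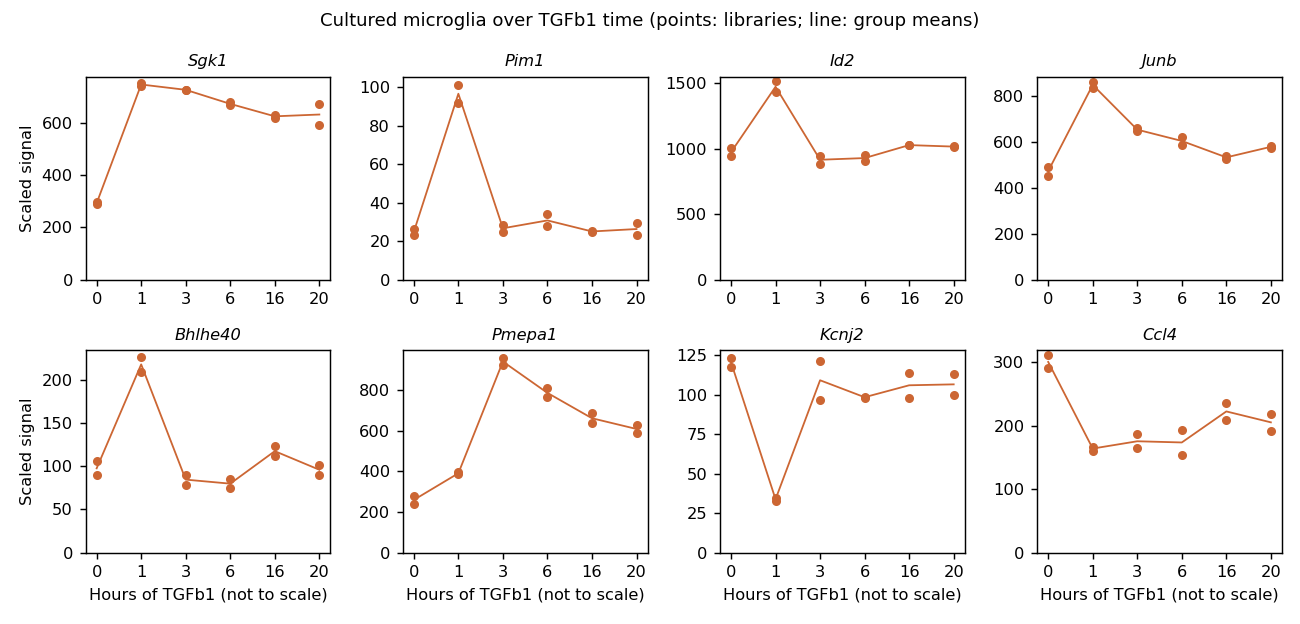
Scaled signal of 8 genes in cultured microglia at 0, 1, 3, 6, 16 and 20 h (x axis, times evenly spaced and not to scale), with a point per library and a line through the group means. Pim1, Id2 and Bhlhe40 peak at 1 h, Sgk1 stays high, Pmepa1 peaks at 3 h, Kcnj2 dips at 1 h only among these times and Ccl4 stays below its 0 h level.

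More genes passed the test in macrophages over the same hour. They had 371 called genes (3.01% of genes tested), 256 up (2.08%) and 115 down (0.932%). Of the 42 microglia genes, 26 were called the same way in macrophages, 22 up and 4 down, and none the opposite way. That is 61.9% of the microglia calls and 7.01% of the macrophage calls, and 37 of the 42 had the same sign. The share of all genes with the same sign was not computed. The comparisons share no library, but the spread of each gene was estimated over all 23 libraries for both. A gene with a small estimated spread is thus more readily called in both, and the overlap is not independent. The change itself differed between the cell types for 75 genes (0.608% of genes tested), 12 of them with a higher and 63 with a lower log2 change in microglia, and 12 of the 42 were among them.

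Sgk1 and Pim1 rose in both cell types. Sgk1 was at 108 and 90.6 in macrophages at 0 h and 261 and 243 at 1 h, and its log2 change differed by 0.01 ± 0.14 (adjusted p = 0.993) between microglia and macrophages. Pim1 was at 303 and 255 and then 899 and 805, a difference in log2 change of 0.31 ± 0.22 (adjusted p = 0.796). With these standard errors, a moderate difference for Pim1 could not be detected.

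For Smad7, Skil, Id1, Id2 and Id3 the log2 change was higher in macrophages. Smad7 in macrophages was at 6.56 and 12.2 at 0 h and 80.7 and 93.3 at 1 h, and the difference in log2 change was -2.50 ± 0.36 (adjusted p = 0.000619). Id1 was at 74.3 and 95.5 and then 510.3 and 539, a difference of -2.84 ± 0.17 (adjusted p = 1.19e-08). In both, the macrophage libraries at 0 h were below all 4 microglia libraries, and those at 1 h were above them for Id1 only. Id3 differed by -1.20 ± 0.17 (adjusted p = 0.000619), Skil by -1.0 ± 0.18 (adjusted p = 0.00596) and Id2 by -0.35 ± 0.07 (adjusted p = 0.0205). The call for Id2 was lost without replicate 2 of microglia at 0 h or 1 h, replicate 2 of macrophages at 0 h or either macrophage library of 1 h.

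Of the 29 immediate early genes, 22 were called up in macrophages, against 4 in microglia, with backgrounds of 2.08% and 0.243%. Nr4a1 in macrophages was at 18.6 and 20.8 and then 1069 and 972, a difference in log2 change of -4.24 ± 0.56 (adjusted p = 0.000293). Fos was at 149.7 and 153 and then 507 and 663, a difference of -1.91 ± 0.26 (adjusted p = 0.000448). Fosb, which rose in both, was at 5.46 and 8.57 and then 663 and 518, and its difference had an adjusted p of 0.0529. Dusp5, also of this list, differed by -2.28 ± 0.48 (adjusted p = 0.0264).

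Outside that list, the log2 change was also higher in macrophages for Junb and Vegfa, of the early targets, for Cebpb and for Trib1 and H3f3b, which are in no list. Junb in macrophages was at 325 and 304 and then 1631 and 1588, a difference in log2 change of -1.51 ± 0.11 (adjusted p = 9.95e-08). Trib1 was at 32.8 and 25.7 and then 408 and 409, a difference of -3.06 ± 0.22 (adjusted p = 6.1e-08). Vegfa differed by -1.45 ± 0.27 (adjusted p = 0.00901), Cebpb by -0.90 ± 0.14 (adjusted p = 0.00198) and H3f3b by -0.65 ± 0.07 (adjusted p = 1.12e-05). The call for Dusp5 was lost without any of 6 of the 8 libraries, the exceptions being microglia 0 h replicate 1 and macrophage 0 h replicate 2, and that for Vegfa without replicate 1 of microglia at 0 h or 1 h or of macrophages at 0 h.

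A few genes had the higher log2 change in microglia. Atf4 was at 863 and 858 in macrophages at 0 h and 855 and 898 at 1 h, and the difference in log2 change was 0.44 ± 0.08 (adjusted p = 0.00516). Irf1 was at 125 and 138 and then 81.7 and 99.4, a difference of 1.51 ± 0.27 (adjusted p = 0.00596). Atf4 was about level in macrophages and Irf1 was lower at 1 h there, without a call. Ccl4 went the other way, with the lower log2 change in microglia, where it fell. In macrophages Ccl4 was at 1415 and 1512 and then 1595 and 1591, a difference of -0.99 ± 0.17 (adjusted p = 0.0049). H2-K2 differed by 3.07 ± 0.65 (adjusted p = 0.0272), with the doubt about shared reads, and that call was lost without any of 5 of the 8 libraries. D4WSU53E fell further in macrophages, from 1002 and 969 to 404 and 355, a difference of 0.75 ± 0.09 (adjusted p = 0.000123).

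The other genes with the smallest p for this difference were not called in microglia. Odc1, the rate-limiting enzyme of polyamine synthesis, was at 102 and 114 and then 134 and 138 in microglia, and its log2 change was -2.39 ± 0.20 (adjusted p = 8.06e-07) against macrophages. Rhob, a small GTPase, was at 313 and 331 and then 390.1 and 376, a difference of -1.81 ± 0.12 (adjusted p = 3.36e-08). Fzr1, a coactivator of the anaphase-promoting complex, was at 387 and 413 and then 369 and 398, a difference of 0.57 ± 0.10 (adjusted p = 0.00516). In macrophages Fzr1 went from 1764 and 1678 to 1108 and 1111. 3110062M04RIK, a synonym of Cyren, a repair regulator, differed by 1.32 ± 0.24 (adjusted p = 0.00641). Over the hour in macrophages, Odc1 and Rhob were called as rises and Fzr1 and 3110062M04RIK as falls. Dusp6 differed by -1.28 ± 0.27 (adjusted p = 0.0273) and LRRC33 by -0.98 ± 0.19 (adjusted p = 0.00982). The calls for 3110062M04RIK, Dusp6 and LRRC33 were lost without 1 or more of the microglia libraries.

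**Figure D4:**
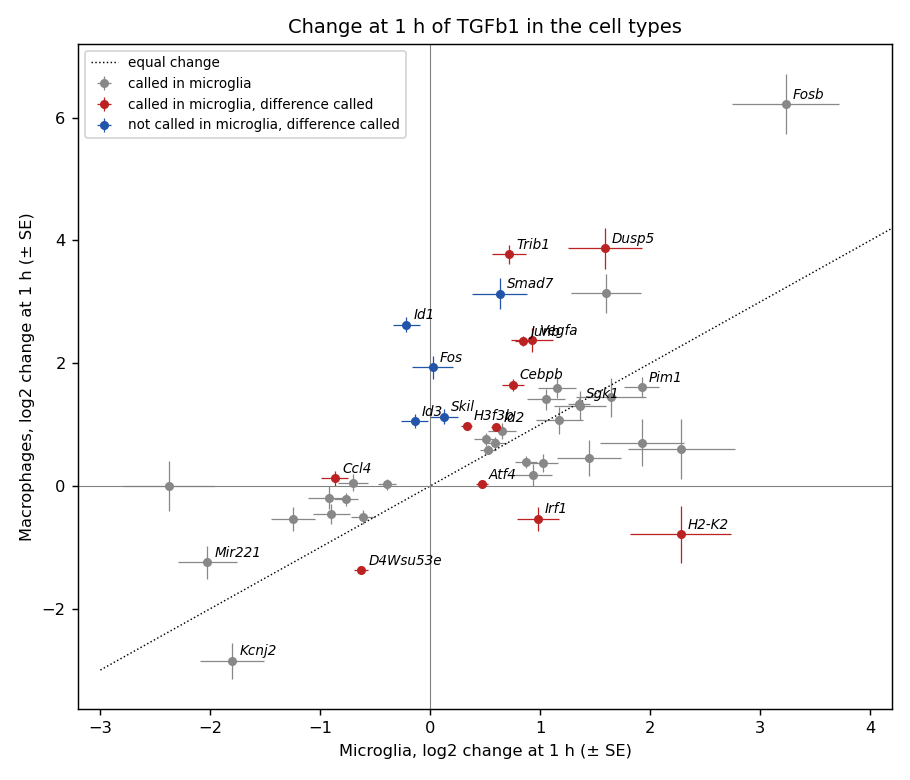
Log2 change at 1 h in cultured microglia (x axis) and cultured macrophages (y axis), each ± standard error, for 41 of the 42 genes called in microglia and for Smad7, Skil, Id1, Id3 and Fos. Red and blue points passed the test of the difference between cell types, and the dotted line marks equal change. Smad7, Id1 and Trib1 lie far above the line, while Sgk1 and Pim1 lie close to it.

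The 250 bases before 1 start of each gene were searched on both strands for 5 motifs. Starts came from the RefSeq table of GRCm38.p6, which matched 8755 of the 12335 genes, 25 of the 30 that rose and 8 of the 12 that fell. A gene with several starts there, such as Sgk1 with 6, was searched only at the first listed. The Smad palindrome GTCTAGAC was in 0.183% of all these windows and in 0 of 25 and 0 of 8. The Smad half-site CAGACA was in 12.9% of all, in 1 of 25 (Il21r) and in 1 of 8 (Sash3). The AP-1 site TGANTCA was in 4.25% of all, in 2 of 25 (Osgin1 and Tspyl3) and in 0 of 8. The cAMP element TGACGTCA was in 2.78% of all and in 0 of 25 and 0 of 8. The CArG box, which serum response factor binds, was in 1.22% of all, in 1 of 25 (Dusp5) and in 0 of 8. Each window printed here holds a single kind of these motifs. A match is a description of the letters and not a site in use.

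The windows of 4 genes that carry these matches are shown, with the matched letters in capitals. They run 5′ to 3′ on the plus strand, on which all 4 genes lie. The window of Tspyl3, a minus-strand gene that also holds an AP-1 match, is not printed. Dusp5 (chr19:53528895-53529144) holds a pair of CArG boxes end to end, at 82 to 73 and 72 to 63 bases before the start. Osgin1 (chr8:119436897-119437146) holds an AP-1 site at 97 to 91. Il21r (chr7:125603179-125603428) at 166 to 161 and Sash3 (chrX:48146186-48146435) at 67 to 62 hold the Smad half-site on the other strand, so that it reads as its complement.
Dusp5: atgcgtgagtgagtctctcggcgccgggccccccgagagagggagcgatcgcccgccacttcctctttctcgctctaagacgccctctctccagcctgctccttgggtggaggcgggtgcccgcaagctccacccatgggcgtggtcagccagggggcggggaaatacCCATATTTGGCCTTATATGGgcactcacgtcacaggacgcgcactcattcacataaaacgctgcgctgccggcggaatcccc
Osgin1: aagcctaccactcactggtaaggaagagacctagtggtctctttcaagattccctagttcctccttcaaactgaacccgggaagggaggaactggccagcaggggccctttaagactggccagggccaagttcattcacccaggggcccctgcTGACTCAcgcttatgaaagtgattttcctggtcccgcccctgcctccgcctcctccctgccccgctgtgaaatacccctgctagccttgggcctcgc
Il21r: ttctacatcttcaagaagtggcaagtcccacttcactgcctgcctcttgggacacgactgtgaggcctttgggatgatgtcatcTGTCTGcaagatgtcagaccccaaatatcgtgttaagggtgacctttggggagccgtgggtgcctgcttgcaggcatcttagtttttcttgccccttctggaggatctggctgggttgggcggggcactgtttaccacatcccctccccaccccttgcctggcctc
Sash3: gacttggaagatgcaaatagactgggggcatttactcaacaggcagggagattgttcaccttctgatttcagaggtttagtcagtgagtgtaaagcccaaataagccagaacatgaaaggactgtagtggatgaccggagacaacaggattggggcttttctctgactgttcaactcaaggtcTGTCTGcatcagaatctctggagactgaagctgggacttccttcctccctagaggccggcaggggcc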

How the data were processed

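RNA from 4 cultured microglia libraries (0 h and 1 h of TGFb1) was analysed within a table of 23 culture libraries and 12335 genes. The authors aligned reads to mm9 by TopHat, per the submitters' processing notes. Its version, the read counter, the annotation and the scaling method are not stated there. The deposited values are a signal per gene whose making is not stated, read here as scaled counts. Between 89.0% and 89.4% of low values (up to 20 reads, tolerance 0.05) were whole multiples of a step in these 4 libraries, too few to recover counts, so no count model was fitted, and totals divided by the step gave the estimated reads. A line naming no gene (at most 0.0140% of a total) was left out. Signal was fitted as log2(signal + 1) by limma 3.58.1 (R 4.3.3), each group of the 23 libraries having its own coefficient, trend and robust empirical Bayes, and Benjamini-Hochberg adjustment over all genes, and calls were made at an adjusted p under 0.05. All genes passed the filter (1 or more in 2 libraries). The pseudocount shrinks changes of low genes. The fit was tested on simulated data, with all libraries drawn around the microglia 0 h means at a single fixed spread and known changes put in at 1 h. That check lacks the other differences between groups, so it cannot show how far calls on the real libraries hold.

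Named were the 14 rises and 10 falls of largest log2 change among called genes whose 0 h and 1 h libraries do not overlap. Also named were up to 5 called members of each list (else the 2 of smallest p) and 12 fixed TGFb, Id and microglia genes. The 5 genes of smallest p in each direction for the difference between cell types were added. Other called genes were named to complete the set, and these and the marked exceptions were chosen after their values were seen. The comparison, lists and rule were chosen with earlier results of these data known. Promoter and hairpin sequences are from RefSeq (GRCm38.p6), a build other than that of the reads, and were matched by symbol only. The libraries of injured cord, in a table scaled apart, were not used here. A few genes that the rule named are not reported here.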

Additional observations from a re-analysis of the deposited data

Results flagged for a closer look

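For 24 of the named genes the log2 change at 1 h differed between cultured microglia and macrophages by limma's test of the difference (adjusted p under 0.05). Over all genes tested, 75 differed (0.608%). Some of the 24 were named for a small p in this same test and others after their values were seen. Their number is thus no measure of how often such genes differ. The values that follow are microglia minus macrophage differences in log2 change. The change was lower in microglia for Junb (-1.51), Trib1 (-3.06), Id1 (-2.84), Smad7 (-2.50), Odc1 (-2.39), Rhob (-1.81) and Nr4a1 (-4.24). It was also lower for Dusp5 (-2.28), Fos (-1.91), Vegfa (-1.45), Dusp6 (-1.28), Id3 (-1.20), Skil (-1.0) and LRRC33 (-0.98). Smaller differences in that direction were those of Cebpb (-0.90), Ccl4 (-0.99), H3f3b (-0.65) and Id2 (-0.35). The change was higher in microglia for H2-K2 (3.07), Irf1 (1.51), 3110062M04RIK (1.32), D4WSU53E (0.75), Fzr1 (0.57) and Atf4 (0.44). Of these, 3110062M04RIK, D4WSU53E and Fzr1 were called as falls in macrophages, and 3110062M04RIK and Fzr1 were not called in microglia. Groups of 2 libraries were too small for a test of outlying libraries.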

How the results depend on the processing

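Alternatives for each comparison were other pseudocounts (0.5, 4 and 16), a filter or none, quantile or median-ratio scaling, no variance trend, no robust step, array weights, fewer libraries, a replicate block and leaving out each library. Called genes at 1 h in microglia numbered 42, against 13 without the variance trend, 71 with array weights and 82 with the 12 microglia libraries alone, and 15 to 30 with a library left out. Leaving out the trend ended 30 of the 42 calls, and the cause was not tested. Sgk1, Pim1, Id2, Junb, Cxcr4, Mir221, Tnf and Bhlhe40 kept their calls in every alternative, of which the fit with no filter equals the reported one because all genes passed the filter. No called value among the named genes changed sign. Of the uncalled ones, 23 did in some alternative. The difference between cell types had 75 calls, 44 with its 8 libraries alone and 53 to 85 with a library left out. Calls at 3 h against 1 h were 72, 131 with quantile normalization, 33 without the trend, 209 with array weights, 185 with the 12 microglia libraries and 15 to 34 with a library left out. At 16 and 20 h against 1 h they were 388, 722 with array weights, 748 with the 12 microglia libraries and 177 to 312 with a library left out.

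The letters a and b of the column names, not the replicate numbers, defined the block. No label says whether they pair the libraries. Differences between replicates at 0 h and 1 h correlated at 0.029 over 8775 genes. With 2 libraries per group, that value cannot tell whether libraries of a letter shared a source. With a replicate block the counts were 39, 77, 64 and 384. With 2 libraries per group and 1746620 to 2246400 estimated reads each, genes of few reads such as Kcnj9 and Tspyl3 rest on single reads in a library.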
